A study of Mus musculus with 8 samples.

Results

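The neuregulins and the ErbB receptors are a ligand and receptor family of 8 genes followed here through adult mouse hippocampus: the receptors Erbb4, Erbb2, Erbb3 and Egfr, and the ligands Nrg1, Nrg2, Nrg3 and Nrg4. They were taken by gene symbol from bulk RNAseq tables of 46517 genes and from single nucleus (sn)RNAseq matrices of 24051 genes, and all 8 were present in both. Erbb4 in CA2 nuclei was picked out with its values known, so its difference between genotypes is described without a test. The mutant mice were Wls fl/-;Gfap-Cre and the controls Wls fl/+;Gfap-Cre, with 2 mice per genotype and assay, described in the methods as males 12 weeks old. Both genotypes carry the Gfap-Cre transgene and 1 floxed allele of Wls. This gene makes the carrier protein that brings Wnts to the cell surface, and Cre deletes the floxed allele in cells that descend from Gfap-expressing neural progenitors. Each sample held both hippocampi of a single mouse.

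Neuregulins are EGF-like growth factors, most of which are made as membrane-bound precursors. They bind ERBB3 and ERBB4, which then pair with each other or with ERBB2, a receptor without a known ligand of its own. EGFR binds other ligands of the family, such as EGF and TGFA. In the adult hippocampus ERBB4 is best known from inhibitory neurons, including those that make parvalbumin, while ERBB3 is known from cells of the oligodendrocyte lineage.

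The libraries were checked before the members were read. In bulk RNAseq Wls was at 3.67 and 6.86 CPM (counts scaled to the library total) in the mutants and at 13.2 and 13.03 in the controls, and in snRNAseq it was called lower in astrocytes, oligodendrocytes, OPC and the deposited type inhibtory neurons 12. The bulk libraries of replicate 2 went against the stated sex in both genotypes, with Xist at 230 CPM in the mutant and 518 in the control against 1.44 and 1.05 in replicate 1, and with Ddx3y at 0.352 and 0.343 CPM against 54.5 and 58.3. Bulk differences are therefore also given within each replicate number. In snRNAseq all samples matched the stated sex, with Xist at 1.60 to 3.49 CPM and Ddx3y at 31.6 to 53.8 CPM. The 4 snRNAseq samples held between 5304 and 10460 nuclei, 29425 in all, and shared between 8 and 21 nucleus barcodes per pair. DGCs (deposited as GC) were 1.70% and 4.43% of the mutant nuclei and 36.1% and 27.9% of the control nuclei. By the study's account of this mutant the DGCs that remain lie mainly in the ventral dentate gyrus, and a list of 6 DGC transcripts summed to 1031 and 955 CPM in mutant DGCs against 1514 and 1378 CPM in control DGCs. In each comparison within DGCs below, position in the dentate gyrus and genotype cannot be told apart. The 3 inhibitory types with the highest Erbb4 were 15.5% and 12.5% of the mutant nuclei and 7.50% and 7.40% of the control nuclei.

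Cell types are named as deposited, including the spelling "inhibtory". Erbb4 was itself one of the transcripts that the study used to name inhibitory neurons, so its high level there is part of the naming. Markers did not bear out 3 names. Excitatory neurons 19 held 400 to 1448 CPM of a list of 6 fibroblast and meningeal transcripts, against 168 to 439 CPM of 5 excitatory transcripts. It also held 695 to 1502 CPM of 6 astrocyte transcripts, more than of the fibroblast and meningeal list in every mouse. Inhibtory neurons 14 held 1002 to 1871 CPM of 4 endothelial transcripts, against 32.2 to 89.8 CPM of Gad1, Gad2 and Slc32a1 together, the enzymes and transporter that mark GABA neurons. It also held 1671 to 2498 CPM of the astrocyte transcripts and 1083 to 1745 CPM of the fibroblast and meningeal ones. Inhibtory neurons 15 held 632 to 1191 CPM of the excitatory transcripts and at most 19.8 CPM of the GABA ones. The value of 1191 CPM came from control replicate 2, which had 1 nucleus of this type. In the other inhibitory types, 5, 12 and 18, the GABA transcripts summed to between 554 and 1704 CPM.

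In whole tissue, Nrg3 was the most abundant member per unit of transcript length and Erbb4 the most abundant receptor. Values are in TPM, transcript abundance corrected for length and library size, and are listed for mutant replicates 1 and 2 and then control replicates 1 and 2. Nrg3, a ligand of ERBB4, stood at 24.1, 23.7, 26.1 and 25.3 TPM. Erbb4, on chromosome 1 (68032186 to 69108059 on the minus strand, mm10), stood at 10.2, 10.9, 8.82 and 11.4 TPM. The ranges of Nrg3, of Erbb4 and of the next gene did not overlap. Nrg2, a neuregulin that binds ERBB3 and ERBB4, stood at 3.27, 3.20, 6.40 and 5.41 TPM. Both mutants were thus below both controls, as they also were in TPM for Nrg3, Egfr and Nrg4. By CPM with edgeR's scaling, where Egfr overlapped, 25.4% of all genes tested had both mutants below both controls. Egfr followed between 3.27 and 4.07 TPM, a range within that of Nrg2. Erbb3 lay between 2.41 and 3.03 TPM and Nrg4, a ligand of ERBB4, between 1.59 and 2.69. Nrg1, the best studied neuregulin, lay between 1.08 and 1.90 TPM, and Erbb2 between 0.93 and 1.72. The order of Erbb3, Nrg4, Nrg1 and Erbb2 was not resolved, since each of these ranges overlapped the next.

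**Figure D1:**
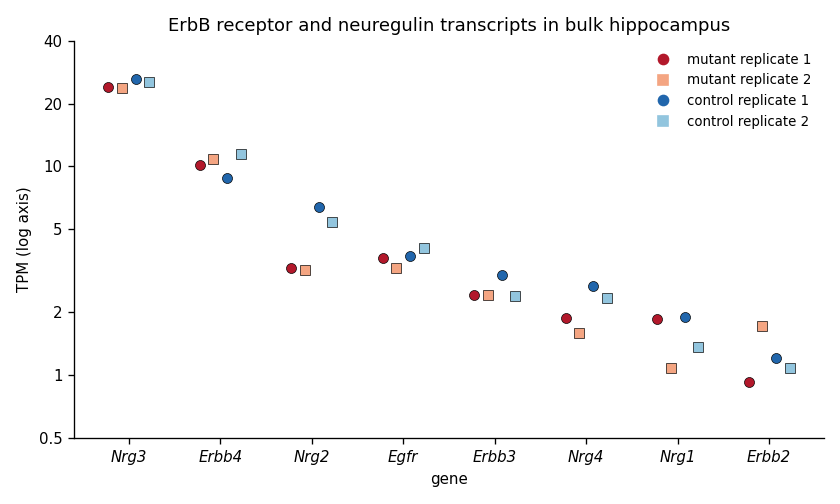
Bulk RNAseq level of the 8 members in TPM on a log axis, with 1 point per mouse (red, mutant; blue, control; circles, replicate 1; squares, replicate 2). Nrg3 lies highest at 23.7 to 26.1 TPM, and Nrg2 is the member whose mutant points (3.27 and 3.20) lie farthest below its control points (6.40 and 5.41).

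Bulk RNAseq called no member as changed between genotypes. All 8 passed the filter on low counts, and 0 of 8 passed the study's thresholds of FC above 3 with FDR below 0.05 in edgeR's quasi-likelihood test or in DESeq2, where 0.218% of all 20687 genes passed in edgeR. At an unadjusted p below 0.05 there was 1 member of 8 by either tool, Nrg2, against 18.8% of all genes in edgeR. Its log2 fold change was -0.68 (SE 0.157, edgeR FDR 0.121). The FDR of Nrg2 was 0.0295 by DESeq2, 0.0298 by edgeR with no filter on low counts, 0.0497 without mutant replicate 1 and 0.502 and 0.506 without control replicates 1 and 2, and the fold stayed under the threshold in each. The within-replicate log2 ratios of Nrg2 were -0.72 in replicate 1 and -0.62 in replicate 2, so the direction was the same in the pair that matched the stated sex. Erbb4 had a log2 fold change of 0.16 (SE 0.107, edgeR FDR 0.494), and its ratio was 0.31 in replicate 1 and 0.03 in replicate 2. The remaining log2 fold changes were 0.33 for Erbb2, -0.08 for Erbb3, -0.11 for Egfr, -0.06 for Nrg1, -0.05 for Nrg3 and -0.39 for Nrg4. The ratios of Erbb2, Erbb3, Egfr and Nrg1 had opposite signs in replicates 1 and 2. With 2 samples per genotype an exact two-sided permutation test of a single value cannot go below p = 0.33.

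Among nuclei the receptors fell into separate groups of cells. Levels below are CPM over UMIs, with the total of all nuclei of that type in a mouse as the library. They can be compared between types and mice, but not between genes, because they are not corrected for transcript length, and the 4 mice are given in the same order as above. The nuclei were clustered on all transcripts, so differences between types carry no test. Erbb4 was at 12595, 10265, 11875 and 10107 CPM in inhibtory neurons 12. It was at 8415 to 9780 CPM in inhibtory neurons 18 and at 3378 to 5045 CPM in inhibtory neurons 5, the largest inhibitory type. Inhibtory neurons 5 supplied 39.7% to 62.5% of the Erbb4 UMIs of a mouse, and inhibtory neurons 12 a further 22.5% to 31.6%. Every nucleus of inhibtory neurons 12 and 18 held an Erbb4 UMI in every mouse.

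Erbb4 was also a transcript of the oligodendrocyte lineage in these nuclei. Oligodendrocytes held 3292, 2139, 3025 and 2128 CPM and OPC, their precursors, held 1995, 2054, 2122 and 1928 CPM. An Erbb4 UMI was found in 93.6% to 97.3% of oligodendrocytes per mouse and in 96.3% to 100% of OPC. The ranges of the 5 highest types did not overlap, and the step from OPC to the next type was 8.64-fold. Choroid plexus nuclei (CP), with too few nuclei for a test, held 1372 CPM in the 184 nuclei of mutant replicate 2 and 839 CPM in the 9 of control replicate 1. There 1 nucleus held 36 of the 50 Erbb4 UMIs (72.0%), and without nuclei that held a UMI of Gad1, Gad2 or Slc32a1 the levels were 1239 and 461 CPM.

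Principal neurons held little Erbb4. DGCs, CA1, CA2, CA3 and mossy cells (MC) and excitatory neurons 7, 8, 10 and 13 held between 12.2 and 195 CPM. Microglia held 139, 97.7, 22.0 and 40.2 CPM, from 3, 67, 4 and 29 UMIs. In control replicate 1 excitatory neurons 8 (54.6 CPM) and CA3 (91.0 CPM) lay above microglia. After each nucleus was thinned to 1500 UMIs, which removed no nucleus, 3.9% to 7.6% of CA1 nuclei held an Erbb4 UMI, against 17.1% to 31.6% before thinning at median depths of 5270 to 12164 UMIs. In microglia the thinned shares were 8.1%, 3.8% and 5.2% outside mutant replicate 1, where 3 of 13 nuclei had one. In inhibtory neurons 12 they were 99.1% to 100%. The CA1 shares lay in or near the range of the microglia, and they are read neither as expression nor as background. No empty droplets were analysed here, and the source of these UMIs was not tested.

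Erbb3 was found in the oligodendrocyte lineage. Oligodendrocytes held 143, 109, 186 and 126 CPM and OPC 31.6, 31.1, 41.0 and 36.4 CPM, while no other tested type exceeded 9.4 CPM in any mouse. The ranges of the 2 types did not overlap, with a 4.03-fold step between their means. Both types therefore held transcripts of 2 neuregulin receptors, and Erbb2 was barely seen in either, at 0 UMIs in oligodendrocytes of all 4 mice. Erbb2 counted 5, 40, 16 and 15 UMIs in all nuclei of a mouse, so its distribution was not resolvable at this depth. Its highest levels were in inhibtory neurons 14, at 25.8, 8.2, 4.3 and 6.0 CPM, and it was at 0 to 7.2 CPM in astrocytes.

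Egfr marked astrocytes and a part of the inhibitory neurons. Astrocytes held 344, 385, 354 and 343 CPM, and 34.9% to 40.9% of them had an Egfr UMI after thinning. Inhibtory neurons 18 held 427 to 681 CPM, inhibtory neurons 12 held 90.9 to 158 CPM and inhibtory neurons 5 held 31.8 to 45.0 CPM. Of the types whose markers went against their names, 2 were also high. Excitatory neurons 19 held 463 to 590 CPM and inhibtory neurons 14 held 184 to 329 CPM. Both also held astrocyte transcripts, as given above. CA1 and CA3 held at most 4.9 CPM, and DGCs held 9.3 to 20.7 CPM. Inhibtory neurons 18 and excitatory neurons 19 did not differ beyond their spread.

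**Figure D2:**
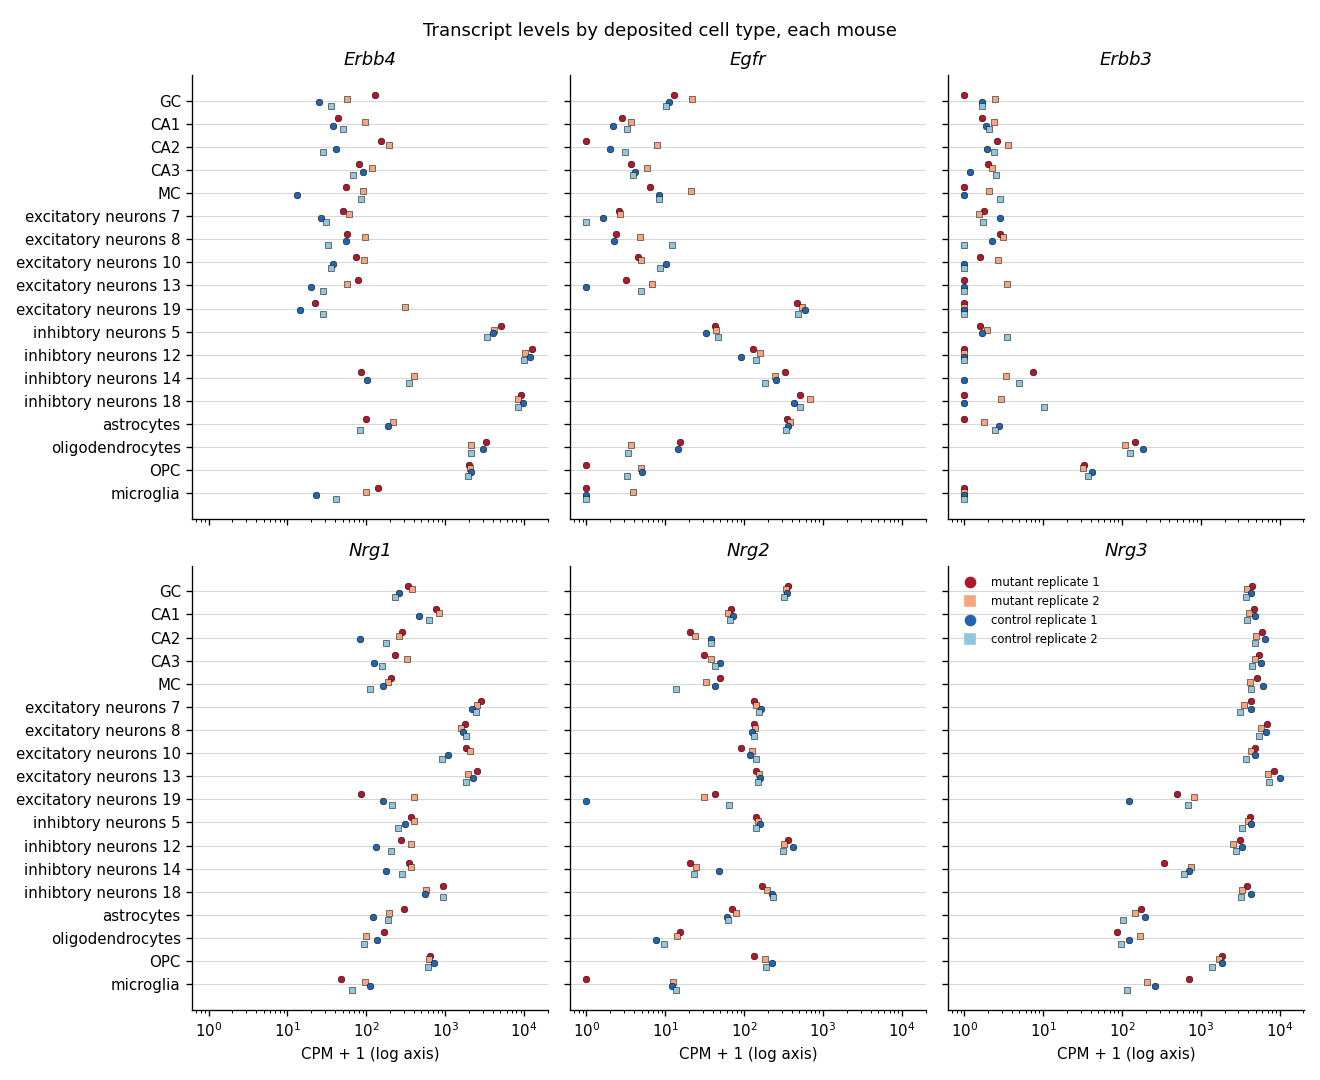
Level of 6 members in each deposited cell type with at least 10 nuclei in every mouse, as CPM + 1 on a log axis, with 1 point per mouse. Erbb4 lies at 1928 CPM or more in 5 types and at 402 CPM or less in all others, Erbb3 reaches 31.1 CPM or more in oligodendrocytes and OPC alone, and Nrg3 lies between 2579 and 10155 CPM in the neurons other than excitatory neurons 19 and inhibtory neurons 14.

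The ligands were mostly neuronal. Nrg3 was at 7131 to 10155 CPM in excitatory neurons 13 and at 2579 to 6856 CPM in the other neuronal types, again leaving out excitatory neurons 19 and inhibtory neurons 14 and, as too small, inhibtory neurons 15. It was at 1383 to 1880 CPM in OPC, and at 86.1 to 193 CPM in oligodendrocytes and astrocytes. Neighbours in its order from excitatory neurons 8 down to inhibtory neurons 12 did not differ beyond their spread. Among the tested types Nrg1 was highest in excitatory neurons 7 (2173 to 2878 CPM), 13 (1826 to 2561 CPM) and 8 (1604 to 1836 CPM). The small inhibtory neurons 15, with 143, 102, 15 and 1 nuclei, reached 3480 to 6225 CPM. The highest of these values came from the 1 nucleus of control replicate 2. CA1 held 464 to 829 CPM, DGCs 233 to 373 CPM and CA3 123 to 325 CPM. Nrg2 had another order, with 307 to 410 CPM in inhibtory neurons 12 and 317 to 360 CPM in DGCs, which did not differ beyond their spread, and 19.4 to 36.8 CPM in CA2. Nrg4 counted between 50 and 180 UMIs in all nuclei of a mouse and reached at most 12.1 CPM in a tested type.

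The genes whose pattern was most like that of Erbb4 were named by a fixed rule, the 5 highest Pearson correlations of log2(CPM + 1) over 18 types in the control mice among 12418 genes. They were Tnip3 (r = 0.944), Gm45768 (0.875), Gm3143 (0.875), Gad1 (0.873) and Gad2 (0.871). Gad1 and Gad2 encode the enzymes that make GABA. Types share their libraries and the naming used Erbb4, Gad1 and Gad2, so these values are a description. Over the same 18 types the correlation with Erbb4 was 0.535 for Erbb3, 0.439 for Egfr, 0.249 for Nrg2, -0.142 for Nrg1 and -0.132 for Nrg3.

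Within CA2 nuclei the summed level of Erbb4 was higher in both mutants than in both controls. It stood at 150 and 195 CPM in mutant replicates 1 and 2 and at 40.6 and 27.3 CPM in control replicates 1 and 2, from 93, 452, 42 and 40 UMIs in 65, 166, 101 and 83 nuclei. The ratio of the means was 5.08-fold, a log2 fold change of 2.35 with an SD of 0.34 between mice of a genotype. Erbb4 was the gene called among the 10079 tested in CA2, where 0.00992% were called, and it was chosen for that, so nothing is read from the call.

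The typical CA2 nucleus held no Erbb4 in any mouse. The median was 0 UMIs per nucleus in all 4. The share of nuclei with an Erbb4 UMI was 26.2% (exact 95% binomial interval 16.0% to 38.5%) and 45.8% (38.0% to 53.7%) in the mutants and 20.8% (13.4% to 30.0%) and 34.9% (24.8% to 46.2%) in the controls, so the genotypes overlapped. These intervals cover counting error only. After thinning the shares were 6.2% and 9.6% in the mutants and 4.0% and 3.6% in the controls, near those of CA1 and of microglia.

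A few nuclei carried the summed difference. A nucleus with 20 or more Erbb4 UMIs, a limit set after the values were seen, occurred once among 65 CA2 nuclei of mutant replicate 1 and 4 times among 166 of mutant replicate 2. The controls had 0 of 101 and 0 of 83, with maxima of 8 and 4 UMIs. In mutant replicate 1 that nucleus held 75 of the 93 UMIs (80.6%), and in mutant replicate 2 the 4 nuclei held 315 of the 452 (69.7%). Such nuclei occurred in both genotypes in other principal neuron types. In CA3 they were 3 of 365 and 18 of 1085 in the mutants and 5 of 467 and 4 of 558 in the controls. They held 43.3% and 56.8% of the CA3 Erbb4 UMIs in the mutants and 72.1% and 51.3% in the controls. In CA1 they were 1 of 1547 and 18 of 2677 in the mutants and 3 of 1207 and 6 of 1294 in the controls. Among the CA2 nuclei under 20 UMIs the levels were 29.8 and 62.1 CPM in the mutants, against 40.6 and 27.3 CPM in the controls. Mutant replicate 1 then lay between the controls, and mutant replicate 2 above both. In mutant replicate 2 the nuclei with 14, 11 and 8 Erbb4 UMIs held 22, 1 and 20 UMIs of a list of oligodendrocyte transcripts. In control replicate 1 those with 8, 5 and 5 Erbb4 UMIs held 33, 16 and 50. The part of such nuclei in the remaining levels was not tested.

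All 5 CA2 nuclei with 20 or more Erbb4 UMIs also held transcripts of GABA neurons. The nucleus with 164 Erbb4 UMIs held 7 UMIs of Gad1, Gad2 and Slc32a1, 104 of the whole list of 20 inhibitory transcripts (Erbb4 left out), 20 of the list of 8 CA2 transcripts and 33 of the list of 6 oligodendrocyte transcripts, in 47672 UMIs. The nucleus with 97 held 9, 95, 6 and 2 of these, and the one with 75 held 9, 65, 1 and 0. The nuclei with 33 and 21 Erbb4 UMIs held 8 and 5 GABA UMIs, 114 and 23 of the inhibitory list and 7 and 11 of the CA2 list. In the CA2 nuclei under 20 UMIs the median count of the inhibitory list was 2 to 8 UMIs per nucleus. Among them was a nucleus of control replicate 2 with 5 GABA UMIs, 101 of the inhibitory list and 20 of the CA2 list. It held 1 Erbb4 UMI. In the order given the 5 nuclei with 20 or more Erbb4 UMIs had Erbb4 levels of 3440, 2605, 4636, 2244 and 1363 CPM. Of these, 2 lay in the range of the sums over inhibtory neurons 5 (3378 to 5045 CPM) and 3 below it.

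**Figure D3:**
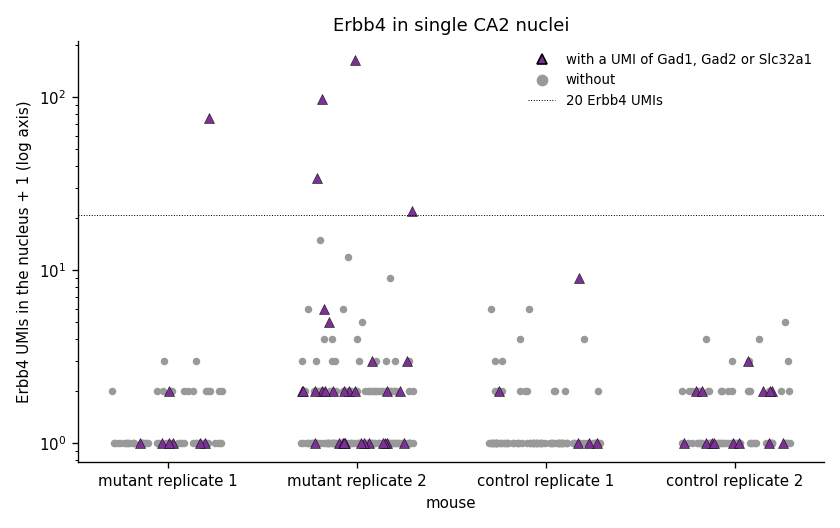
Erbb4 UMIs + 1 (log axis) in every CA2 nucleus of the 4 mice, spread sideways for view, with purple triangles for nuclei that hold a UMI of Gad1, Gad2 or Slc32a1 and grey circles for the others. The 5 nuclei at or above the dotted line of 20 Erbb4 UMIs are all triangles and lie in the mutants, with 1 in replicate 1 and 4 in replicate 2.

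Without the CA2 nuclei that held a UMI of Gad1, Gad2 or Slc32a1, the genotypes overlapped. Such nuclei were 8 of 65 and 31 of 166 in the mutants and 5 of 101 and 14 of 83 in the controls. The remaining nuclei had Erbb4 at 32.5 and 62.1 CPM in the mutants and 33.5 and 28.1 CPM in the controls, and the ratio of means fell to 1.54-fold (log2 0.62). Without the tenth of nuclei with the most UMIs in each mouse, the log2 ratio was 0.77. Over all CA2 nuclei, the inhibitory list had 7 of 20 transcripts above the controls in both mutants, Gad1 and Gad2 among them. It had 2 below (Sst and Cck) and 11 that overlapped. Of all genes tested in CA2, 20.6% had both mutants above and 20.8% below. The summed level of the list was 407 and 444 CPM in the mutants and 380 and 549 CPM in the controls. Cck alone was at 103 and 84.0 CPM in the mutants and 187 and 263 CPM in the controls. Gad1, Gad2 and Slc32a1 together were at 25.8 and 24.6 CPM in the mutants and 4.83 and 12.96 CPM in the controls. The CA2 list had 5 of its 8 transcripts below the controls in both mutants, and its sum was 263 and 358 CPM against 593 and 397 CPM. Slc32a1, the vesicular GABA transporter, was at 0 in 1 mouse of each genotype.

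The other members that passed the filter in CA2 were Nrg1, Nrg2 and Nrg3. Nrg1 was at 279 and 258 CPM in the mutants and 83.1 and 174 CPM in the controls, and Nrg2 at 19.4 and 22.8 CPM against 36.7 and 36.8 CPM. The groups were apart for both, Nrg1 higher and Nrg2 lower in the mutants, where 20.6% of all genes tested in CA2 had both mutants above and 20.8% below. Both belong to the contrast that chose Erbb4, so they carry no test and nothing is read from them. The ranges of Nrg3 overlapped, at 5908 and 4939 CPM against 6454 and 4886 CPM.

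Outside CA2 no member was called in any cell type by edgeR's quasi-likelihood test with the low-count filter, no replicate block and all 4 mice. Other fits called some. Of 136 possible tests of 8 members in 17 types, 82 passed the filter on low counts. None passed the thresholds of FC above 2 with FDR below 0.05 in that test, where 0.200% of all tests of all genes passed. At an unadjusted p below 0.05 there were 15 of the 82 (18.3%), against 9.32% of all tests. All 15 were higher in the mutants, against 4.44% of all tests that were so in that direction, and 14 of them were Erbb4 or Nrg1. The same 4 mice stand behind every type, so these tests are not independent of each other. DESeq2 had 14 at an unadjusted p below 0.05 and called 2, Nrg1 in CA3 (FDR 0.0026) and Erbb4 in DGCs (FDR 0.0031). With the replicate number as a block edgeR called 3, the same 2 and Erbb4 in excitatory neurons 13. With no filter on low counts it called 5, and fits with a mouse left out also called some.

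Erbb4 passed the filter in 16 of the 17 types. Both mutants lay above both controls in 7 and below them in 0, where 19.8% of all tests had the mutants above and 20.6% below. In DGCs the levels were 128 and 55.2 CPM in the mutants and 24.0 and 34.7 CPM in the controls (log2 fold change 1.40, SE 0.341, edgeR FDR 0.0799), and 1 nucleus held 69.8% of the Erbb4 UMIs of mutant replicate 1. In excitatory neurons 13 they were 78.0 and 56.4 CPM against 18.6 and 27.0 CPM (1.54, SE 0.304, FDR 0.233), and 1 nucleus held 42.5% of the UMIs of mutant replicate 1. In excitatory neurons 10 they were 73.5 and 93.2 CPM against 36.4 and 34.3 CPM (1.29, SE 0.271, FDR 0.207). In microglia they were 139 and 97.7 CPM against 22.0 and 40.2 CPM (1.48, SE 0.427, FDR 0.464). There 1 nucleus held 37 of the 67 UMIs of mutant replicate 2 (55.2%), and without nuclei with GABA transcripts that mouse was at 42.0 CPM, next to 39.5 CPM in control replicate 2. Excitatory neurons 7 and 8 and inhibtory neurons 5 made up the 7, with log2 fold changes of 1.02, 0.84 and 0.33.

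In 4 of the 5 types where Erbb4 was most abundant, mutants and controls overlapped. The log2 fold change was 0.10 (SE 0.140) in inhibtory neurons 12, -0.02 (SE 0.186) in inhibtory neurons 18, 0.10 (SE 0.225) in oligodendrocytes and 0.05 (SE 0.120) in OPC. In the fifth, inhibtory neurons 5, they stood apart as given above. Of the 11 tested types with less Erbb4, the groups stood apart in 6 and overlapped in 5, which were CA1, CA3, MC, astrocytes and inhibtory neurons 14. In the pool of all nuclei of a mouse, Erbb4 was at 1023 and 993 CPM in the mutants and 618 and 653 CPM in the controls, and the inhibitory types with the most Erbb4 took the larger share of mutant nuclei given above. The part of these quantities in the low-level differences was not tested.

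Nuclei with GABA transcripts were also left out of the other principal neuron types, an alternative added after the values were seen. The log2 fold change of Erbb4 moved from 1.40 to 0.99 in DGCs, from 1.29 to 0.87 in excitatory neurons 10, from 1.54 to 1.05 in excitatory neurons 13, from 1.02 to 0.65 in excitatory neurons 7 and from 0.84 to 0.55 in excitatory neurons 8. Each kept its sign, and edgeR called no member. Over all nuclei, the inhibitory list summed to 1302 and 1303 CPM in mutant DGCs and 1625 and 1297 CPM in control DGCs, with 7 of its 20 transcripts above and 5 below the controls. In excitatory neurons 13 the counts were 8 above and 1 below, with sums of 1493 and 1277 CPM in the mutants against 1405 and 1389 CPM, and Gad1, Gad2 and Slc32a1 together were at 22.4 and 16.3 CPM against 6.2 and 12.98 CPM. In excitatory neurons 10 there were 7 above and 1 below, with sums of 549 and 633 CPM against 549 and 509 CPM. For comparison with these counts, 19.8% of all tests in the 17 types had both mutants above both controls and 20.6% had both below.

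**Figure D4:**
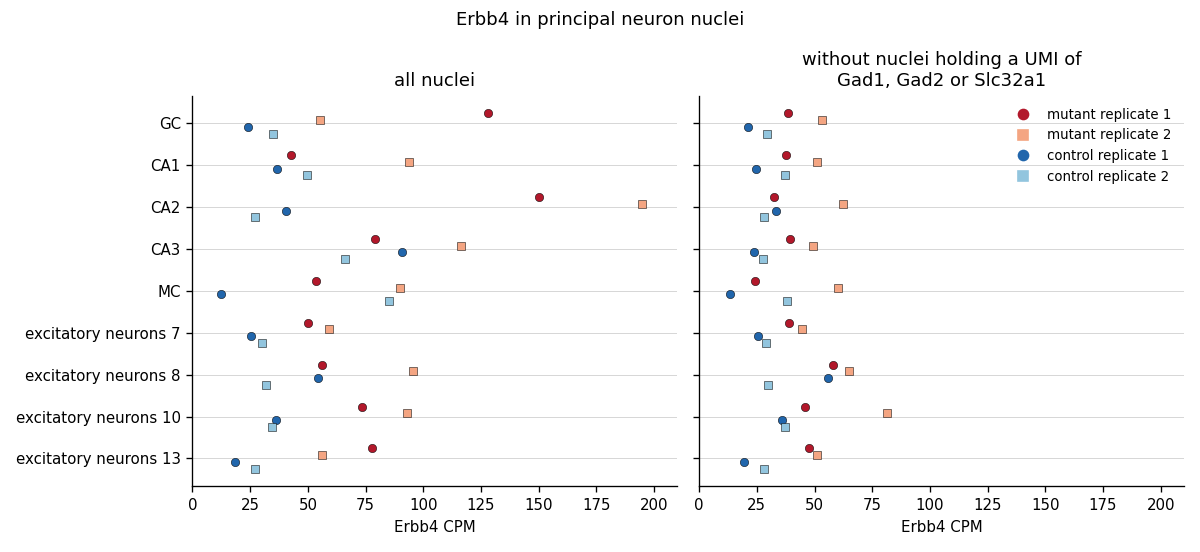
Erbb4 CPM in 9 principal neuron types, with 1 point per mouse, over all nuclei (left) and without nuclei that hold a UMI of Gad1, Gad2 or Slc32a1 (right). The CA2 points of the mutants move from 150 and 195 CPM to 32.5 and 62.1 CPM, while those of the controls, 40.6 and 27.3 CPM, move to 33.5 and 28.1 CPM.

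Nrg1 passed the filter in all 17 types, with both mutants above both controls in 10 and below in 0, where 19.8% of all tests had the mutants above and 20.6% below. The unadjusted p was below 0.05 in 7 of them, where 9.32% of all tests were, and the lowest edgeR FDR was 0.119. In CA3 the levels were 228 and 325 CPM in the mutants and 123 and 155 CPM in the controls (log2 fold change 1.02, SE 0.200, edgeR FDR 0.158). In excitatory neurons 10 they were 1856 and 2034 CPM against 1083 and 901 CPM (1.02, SE 0.217, FDR 0.214). In inhibtory neurons 12 they were 277 and 371 CPM against 132 and 202 CPM (0.99, SE 0.215, FDR 0.119). CA1, DGCs, astrocytes and inhibtory neurons 5 had smaller log2 fold changes of 0.55, 0.56, 0.63 and 0.49. The thinned share of nuclei with an Nrg1 UMI was 24.9% and 25.3% in mutant CA3 and 12.8% and 15.4% in control CA3, against 7.7% to 13.3% in microglia.

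Among the tested types with the most Nrg1 the differences were of unlike size. The log2 fold change was 0.26 (SE 0.181) in excitatory neurons 7, where the groups did not overlap, 0.18 (SE 0.179) in excitatory neurons 13 and -0.002 (SE 0.163) in excitatory neurons 8, where they did. Excitatory neurons 10, next in the order of levels and overlapping excitatory neurons 8 in range, had 1.02 as given above. In microglia and oligodendrocytes, where it is low, the groups overlapped as well. Over all nuclei Nrg1 was at 1156 and 745 CPM in the mutants and 460 and 430 CPM in the controls. Excitatory neurons 7, 8, 10 and 13 and inhibtory neurons 15, the types with the most Nrg1, together made up 37.0% and 12.8% of mutant nuclei and 10.3% and 5.77% of control nuclei. Their part in the differences within other types was not tested. Leaving out nuclei with GABA transcripts moved the log2 fold change in CA3 from 1.02 to 0.91 and in excitatory neurons 10 from 1.02 to 0.96. In bulk RNAseq Nrg1 stood at 1.87 and 1.08 TPM in the mutants and 1.90 and 1.37 TPM in the controls, ranges that overlap.

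**Figure D5:**
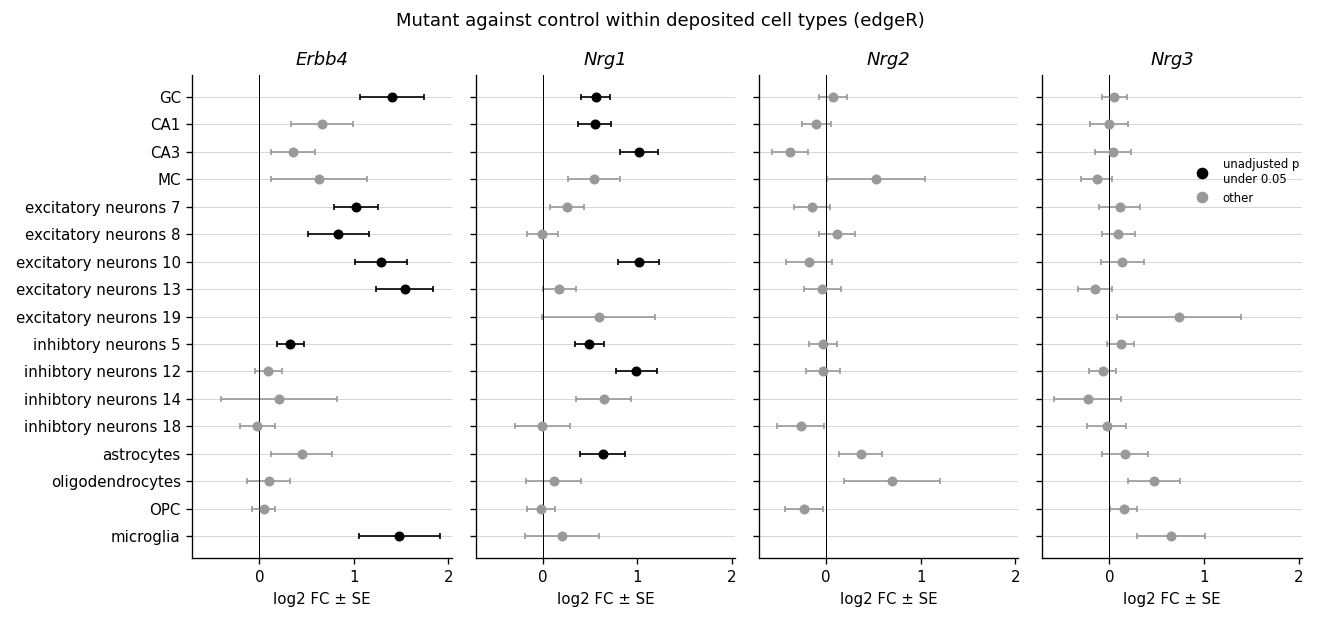
Log2 fold change (mutant over control, edgeR, bars are ± 1 SE) of Erbb4, Nrg1, Nrg2 and Nrg3 within each tested type outside CA2, from 2 mice per genotype, with black points for an unadjusted p below 0.05 and no point where the gene did not pass the filter. Erbb4 and Nrg1 have 7 black points each, all to the right of 0, Nrg2 and Nrg3 have none, and no point passed FC above 2 with FDR below 0.05.

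Nrg2 was lower in mutant tissue and in the pool of mutant nuclei, but not within DGC nuclei, which held 60.6% and 59.3% of the Nrg2 UMIs of the controls and 5.78% and 15.9% of those of the mutants. All nuclei of a mouse together held 98.0 and 94.7 CPM in the mutants and 166 and 141 CPM in the controls. DGC nuclei held 360 and 337 CPM in the mutants and 345 and 317 CPM in the controls, ranges that overlap (log2 fold change 0.07, SE 0.150, edgeR FDR 0.868). The shares of DGC nuclei with an Nrg2 UMI after thinning were 40.0%, 39.3%, 39.2% and 35.0%. In bulk tissue, fewer cells of a type and less RNA per cell cannot be told apart. The share of DGC nuclei, given above, and the pooled Nrg2 level were each lower in both mutants than in both controls. Between the mutants, replicate 2 had the larger share and the lower pooled level. The part of the DGC share in the pooled level was not tested. Of the 14 types where Nrg2 was tested, 3 had both mutants above the controls and 4 below by TMM-scaled CPM, none at an unadjusted p below 0.05. Without that scaling the genotypes overlapped in excitatory neurons 8, which is among the 3.

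Nrg3 overlapped between genotypes in all 17 types. In DGCs Nrg3 stood at 4443 and 3846 CPM for the mutants and 4296 and 3700 CPM in the controls, and replicate 2 was below replicate 1 in each genotype. Egfr passed in 10 types. By TMM-scaled CPM it overlapped in 8 and was above the controls in DGCs and inhibtory neurons 18. In inhibtory neurons 18 the TMM-scaled levels were 605 and 820 CPM against 502 and 603 CPM, and without that scaling the genotypes overlapped. In DGCs Egfr was at 12.1 and 20.7 CPM against 10.3 and 9.3 CPM (log2 fold change 0.96, SE 0.294, edgeR FDR 0.154). Erbb3 in oligodendrocytes overlapped (-0.33, SE 0.278). In OPC it was at 31.6 and 31.1 CPM in the mutants against 41.0 and 36.4 CPM (-0.25, SE 0.332, edgeR FDR 0.891). Nrg4 passed in 4 types, with both mutants above both controls in 3, and Erbb2 passed in 1, where the genotypes overlapped. Neither had an unadjusted p below 0.05. Over all tests in the 17 types, 19.8% had both mutants above both controls and 20.6% had both below.

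The other genes of the pathway were a list of 49, covering further EGF family ligands, proteases that release them, adaptors, kinases and inhibitors. In the 17 types 635 of their tests passed the filter, and 1 was called higher and 0 lower in the mutants by edgeR. It was Shc3, a neuronal adaptor that couples receptor tyrosine kinases to Ras, in DGCs, where 1.47% of genes were called and position and genotype cannot be told apart. Its level, TMM-scaled, was 19.1 and 31.5 CPM in the mutants and 11.2 and 8.53 CPM in the controls (log2 fold change 1.53, SE 0.287, edgeR FDR 0.0343). At an unadjusted p below 0.05 there were 13 higher and 13 lower, 4.09% of the list's tests against 9.32% of all tests.

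In bulk RNAseq 46 of the 49 were tested and 0 passed FC above 3 with FDR below 0.05, against 0.218% of all genes. The median log2 fold change of the list was -0.06, against 0.01 over all genes. At an unadjusted p below 0.05 there were 5 higher and 14 lower of the 46, where 18.8% of all genes were at that p in either direction. Cblb, a ubiquitin ligase that acts on activated receptors, had an edgeR FDR below 0.05 with a fall under the fold threshold, at 30.5 and 29.7 CPM in the mutants and 47.8 and 50.4 CPM in the controls (log2 fold change -0.71, FDR 0.0230). Tgfa, a ligand of EGFR, did likewise, at 29.6 and 33.7 CPM against 52.1 and 48.1 CPM (-0.66, FDR 0.0466). Lrig1, a membrane protein that restrains ErbB receptors, was at 38.9 and 42.0 CPM against 26.8 and 31.2 CPM (0.48, FDR 0.101). For these bulk values too, a changed number of cells of a type and changed RNA per cell cannot be told apart.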

How the data were processed

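Each assay had 2 mutant and 2 control samples, grouped by their genotype labels. In bulk RNAseq, the authors used RSEM 1.3.0 with Bowtie2 2.2.9 on mm10 and deposited an expected count per gene, which shares out ambiguous reads, with its TPM. A second deposited table holds signal, the expected count divided by a size factor of the library. In snRNAseq, Cell Ranger 3.1.0 was run on an mm10 index of pre-mRNA, and Monocle 3 served to correct batches, cluster and name nuclei. The deposited matrices hold a UMI count per gene and nucleus, for nuclei the authors kept. Pre-mRNA counting includes intronic reads, and long genes collect many of them. Doublets were not called here.

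Bulk libraries summed to between 56002381 and 79576196 expected counts and snRNAseq samples to between 26307081 and 76486132 UMIs. Expected counts were rounded. UMIs were summed per mouse and type, in the 18 types that had 10 nuclei or more in each mouse. Both were tested in edgeR 4.0.16 (R 4.3.3) with filterByExpr, TMM and the quasi-likelihood test, each type separately, with FDR over all genes of the fit. The tests of the study, EBSeq and Monocle 3 regression, were not run here. SE was derived from the F statistic. CPM uses all UMIs of the nuclei as total and, where called TMM-scaled and in bulk, edgeR's scaling. Counts of types where a member had both mutants above or below both controls also use edgeR's scaling. The same holds for such shares of all genes or tests. Alternatives were RLE scaling, no filter, DESeq2 1.42.0, limma 3.58.1 on log2 of the deposited signal + 1, the replicate number as a block, each sample left out, and selections and thinning of nuclei. Code was tested on simulated data. Other steps ran in Python with numpy 2.4.6 and pandas 2.3.3. Gene positions are from GENCODE vM21 annotation of the same build.

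Named genes are the 8 members, pathway genes called in a fit, the 5 genes most like Erbb4 with at least 20 CPM in a type, and Wls, Xist, Ddx3y and markers as checks. Cblb, Tgfa and Lrig1 were named after their values were seen. The members and lists were chosen with earlier results of these data known.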

Additional observations from a re-analysis of the deposited data

Results flagged for a closer look

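Nrg2 was flagged because its genotypes stood apart in opposite directions in different cell types. By TMM-scaled CPM both mutants were above both controls in 3 types and below them in 4. The largest rise was in oligodendrocytes (log2 fold change 0.70, at 14.3 and 12.99 CPM against 6.7 and 8.6 CPM, from 2, 29, 3 and 22 UMIs). The largest fall was in CA3 (log2 fold change -0.38, at 30.3 and 37.1 CPM against 48.8 and 41.8 CPM, from 89, 508, 248 and 386 UMIs). The log2 fold changes of oligodendrocytes and CA3 differed by 1.08. The difference between the types was not tested, and neither value had an unadjusted p below 0.05. The share of all tests with both mutants above was 19.8% and with both below 20.6%.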

How the results depend on the processing

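The 0 bulk calls among members stayed 0 under all 9 alternatives. The 0 snRNAseq calls outside CA2 became 5 with no filter on low counts, 2 by DESeq2 (Nrg1 in CA3 and Erbb4 in DGCs) and 1 to 8 with a mouse left out: 5 without mutant replicate 1, 1 without mutant replicate 2, 3 without control replicate 1 and 8 without control replicate 2. They stayed 0 with RLE scaling and without nuclei holding GABA transcripts. Most of these calls were Erbb4 or Nrg1, all higher in the mutants, and the cause was not tested. The log2 ratio of Erbb4 in CA2, 2.35, was 0.62 without nuclei holding GABA transcripts, 0.77 without the tenth of nuclei with the most UMIs and 1.95 with nuclei thinned to 1500 UMIs, in 1 random draw that left few Erbb4 UMIs per mouse. The mean share of control nuclei with an Erbb4 UMI went with thinning from 100% to 99.6% in inhibtory neurons 12, from 95.5% to 91.7% in oligodendrocytes, from 27.9% to 3.79% in CA2 and from 23.1% to 4.11% in CA1. In bulk RNAseq, leaving out 1 library turned the sign of Erbb2 (range -0.15 to 0.68), Erbb3 (-0.24 to 0.10) and Nrg1 (-0.55 to 0.31, with 0.20 without control replicate 1). The call of Shc3 in DGCs was lost by DESeq2 (FDR 0.0559) and without either mutant (FDR 0.0981 without replicate 1, 0.589 without replicate 2).

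Replicate numbers were shared by the genotypes. In bulk, same-numbered libraries also matched in Xist and Ddx3y, as given above, and no source used here says that a number marks a shared litter, batch or day. The correlation of same-numbered deviations was 0.021 in bulk and 0.042 to 0.372 over the snRNAseq types. With the replicate number as a block, 0 bulk members and 3 snRNAseq tests were called (Nrg1 in CA3, Erbb4 in DGCs and in excitatory neurons 13).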
